A study of Mus musculus with 24 samples.

Results

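The 10 genes described here move bile acids across the gut epithelium or sense them through the nuclear receptor FXR, and they were chosen by name from the 53465 genes of a raw count table. They are *Slc10a2*, *Fabp6*, *Slc51a*, *Slc51b*, *Nr1h4*, *Nr0b2*, *Fgf15*, *Abcc2*, *Abcc3* and *Gpbar1*. Counts were high enough to test 8 of them among 15044 genes in all, whereas *Nr0b2* and *Gpbar1* did not pass the filter on low counts. RNA came from intestinal epithelial cells of Guca2a-Venus mice, which express the yellow fluorescent protein Venus from the promoter of *Guca2a*, the gene of the gut peptide guanylin. Cells of the duodenum, jejunum, ileum and colon were sorted by fluorescence into Venus-positive and Venus-negative cells, giving 8 groups of 3 libraries. All 24 libraries came from transgenic mice on standard chow, no agent was given, and the age of the mice is not given in the sources used here. The line descends from a single founder carrying a bacterial artificial chromosome, so Venus reports that promoter in that line. The colon samples also held the rectum, and dead cells, debris and CD45+ immune cells were gated out of both populations. The design names 3 mice, so both sorts of a region may share a mouse, but the labels do not tie a library to one. The tests treated libraries as independent, and p-values measure the spread between them.

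Bile acids made in the liver are returned from the gut by ileal enterocytes, which take them up at the brush border, carry them through the cytosol and release them to the blood. FXR binds bile acids inside the cell, and in the ileum it is known for raising the genes of the cytosolic carrier, the basolateral exporter and a hormone that lowers bile acid synthesis in the liver. Levels below are CPM, read counts scaled to a common library total, on library sizes corrected by the trimmed mean of M values (TMM). Tests are two-sided, by edgeR's quasi-likelihood method, with p-values adjusted after Benjamini and Hochberg across all tested genes, and a gene is said to have risen, fallen or differed where its adjusted p was under 0.05. In sorted bulk RNA, fewer cells of a type and less RNA per cell cannot be told apart.

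Libraries held 7458616 to 23063124 gene counts. A floor of 3 counts corresponded to 0.130 to 0.402 CPM on library sizes without the TMM correction. Folds against the floor below use the corrected sizes. The mitochondrial share of the gene counts moved with the sort in the small intestine. It was 32.3% to 46.6% in Venus-positive against 64.6% to 76.4% in Venus-negative libraries of the duodenum, 47.1% to 60.6% against 61.2% to 78.8% in the jejunum and 41.0% to 55.4% against 64.7% to 70.9% in the ileum. In the colon the ranges overlapped, at 68.6% to 77.9% against 65.3% to 80.7%. The part of this share in the sort differences was not tested. *Guca2a* itself rose in the Venus-positive cells of all 4 regions, by 5.75, 2.65, 2.86 and 2.69 on the log2 scale from duodenum to colon. The summed level of 14 enterocyte markers in the ileum was 6835 to 13040 CPM in Venus-positive against 600 to 913 CPM in Venus-negative cells. It was 25470 to 30640 against 2625 to 3344 CPM in the jejunum, 2366 to 4976 against 1902 to 2847 CPM in the duodenum and 601 to 801 against 209 to 220 CPM in the colon. All 14 of these markers rose in Venus-positive cells of the jejunum and of the ileum, 7 rose in the colon, and in the duodenum 2 rose and 2 fell. The summed level of 8 goblet markers was 53010 to 60460 CPM in Venus-positive cells of the duodenum and 1907 to 10090 CPM in those of the other regions, against 296 to 1848 CPM in Venus-negative cells. The 9 enteroendocrine markers summed to 34.6 to 317 CPM in Venus-positive against 224 to 1623 CPM in Venus-negative cells. All 7 Paneth markers rose in Venus-positive cells of duodenum, jejunum and ileum, and 0 rose in those of the colon. All 5 stem and proliferation markers fell in those of jejunum and ileum, 3 in the colon and 1 in the duodenum, and in the ileum they summed to 113 to 225 against 1065 to 3680 CPM. Of 3 tested tuft markers, 3 fell in jejunum and ileum, 2 in the duodenum and 0 in the colon. Their median log2 fold change in the colon was -1.32. Tuft markers summed to 2.13 to 2.52 against 20.9 to 30.7 CPM in the ileum. The part of cell composition in the results below was not tested. Leucocyte markers summed to at most 9.25 CPM in any library and those of endothelium and stroma to at most 13.7 CPM.

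RefSeq promoter windows of 300 bases on GRCm38.p6 were found for 8 of the 10 genes, and *Fgf15* and *Abcc3* were not matched. The stretches of *Fabp6* and *Slc10a2* are shown because *Fabp6* had the highest ileal level per kilobase of the set and *Slc10a2* encodes the uptake step. Each runs 5′ to 3′ on the minus strand and holds the bases before the RefSeq start that lie outside the annotated gene, chr11:43601563-43601812 for *Fabp6* and chr8:5105352-5105537 for *Slc10a2*. Capitals mark matches to an FXR element, IR-1, or to the site of the homeobox factor HNF1.

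Fabp6: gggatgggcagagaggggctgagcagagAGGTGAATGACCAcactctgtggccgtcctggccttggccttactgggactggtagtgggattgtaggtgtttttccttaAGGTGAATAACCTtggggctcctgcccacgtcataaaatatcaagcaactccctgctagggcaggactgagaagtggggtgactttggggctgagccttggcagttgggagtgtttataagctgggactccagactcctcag

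Slc10a2: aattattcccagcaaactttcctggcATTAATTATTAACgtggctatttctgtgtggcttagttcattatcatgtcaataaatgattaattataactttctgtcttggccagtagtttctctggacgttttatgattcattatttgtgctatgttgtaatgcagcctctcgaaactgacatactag

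IR-1 was searched as AGGTCA, 1 free base and the reverse complement of AGGTCA, and HNF1 as GTTAAT, 1 free base and ATTAAC, on both strands with at most 2 mismatches over 12 fixed bases. Of 32544 promoter windows, 1.14% held an IR-1 match and 1.37% an HNF1 match. *Fabp6* held 2 IR-1 matches, starting 222 and 142 bases before the RefSeq start, each with 2 mismatches. *Slc10a2* held an HNF1 match with 1 mismatch that started 224 bases before its start. *Nr1h4* and *Abcc2* each held an HNF1 match with 2 mismatches, starting 40 and 75 bases before their RefSeq starts. Both matches lay inside the annotated genes, as did the whole window of *Nr1h4*. The GATA motif AGATAA, which 11.2% of windows held on either strand, was in the window of *Nr1h4*. The windows of *Slc51a*, *Slc51b*, *Nr0b2* and *Gpbar1* held no match to these 3 motifs. These matches are descriptions of the letters, and binding was not measured.

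*Slc10a2* (GRCm38 chr8:5083219-5105351) encodes ASBT, the sodium-dependent transporter that takes bile acids up at the brush border. Its transcript was most abundant in the ileum, second in the colon, and low in the proximal gut. Venus-positive cells of the ileum had 436, 636 and 953 CPM and Venus-negative cells 16.5, 49.5 and 64.8 CPM. Every Venus-positive library lay above every Venus-negative one, and the mean was 15.5-fold higher, a log2 fold change of 3.95 (SE 0.52, adjusted p = 1.00e-06). In the colon, Venus-positive cells had 118, 136 and 91.4 CPM against 9.23, 5.13 and 12.1 CPM. The colonic groups did not overlap either, and the difference was 3.71 on the log2 scale (SE 0.52, adjusted p = 1.92e-05). The jejunum had 0.831, 4.07 and 1.90 CPM in Venus-positive and 0.228, 0.643 and 0.726 CPM in Venus-negative cells, and the duodenum 2.77, 1.15 and 2.81 against 0.351, 1.75 and 0.577 CPM. At these low levels the gene rose in Venus-positive cells of the jejunum (log2 fold change 2.06, adjusted p = 0.00803), but not without the second Venus-positive library (1.39, adjusted p = 0.11) or in a fit of the jejunal libraries alone (2.10, adjusted p = 0.054). In the duodenum the difference of 1.28 missed the threshold (adjusted p = 0.15, 95% interval 0.043 to 2.52), and without Venus-negative replicate 2 it passed at 2.23 (adjusted p = 0.045). It also passed on library size alone (1.80, adjusted p = 0.026) and with no filter (1.36, adjusted p = 0.015).

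In both sorted populations *Slc10a2* was higher in the ileum than in the colon, and higher in the colon than in the duodenum or jejunum. In Venus-positive cells the ileum exceeded the colon by 2.55 (adjusted p = 2.86e-04), the jejunum by 8.20 (adjusted p = 4.76e-10) and the duodenum by 8.25 (adjusted p = 2.79e-10) on the log2 scale. The colon exceeded the duodenum by 5.70, a 51.9-fold difference, and likewise the jejunum (jejunum minus colon -5.64), and no difference was called between jejunum and duodenum (0.05, adjusted p = 0.96). In Venus-negative cells the ileum exceeded the colon by 2.31, the jejunum by 6.30 and the duodenum by 5.58. Of all 40008 counts on the gene, 86.5% lay in ileal and 12.9% in colonic libraries. Each duodenal library shared its first (i7) index with an ileal library of the same sort, and each jejunal library with a colonic one. Libraries of every other region also shared the second (i5) index with ileal libraries. The duodenal counts of *Slc10a2* in Venus-positive cells were 0.108% to 0.309% of those in the ileal library with the same i7 index, and 0.356% to 2.31% in Venus-negative cells. The jejunal counts were 0.677% to 5.16% of those in the colonic partner in Venus-positive cells and 4.29% to 15.6% in Venus-negative cells. The part of index exchange in such low values was not tested.

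*Fabp6* (chr11:43596049-43601540) encodes the ileal lipid-binding protein that carries bile acids through the cytosol. Of its 74978 counts, 98.8% lay in ileal libraries. Venus-positive cells of the ileum had 1373, 1141 and 1391 CPM and Venus-negative cells 119, 167 and 172 CPM. The groups stood far apart, with an 8.54-fold difference (log2 fold change 3.09, SE 0.60, adjusted p = 1.60e-04). Per kilobase of exon *Fabp6* ranked 4 of 21929 protein-coding genes in ileal Venus-positive cells and 15 in the Venus-negative ones. In the colon it had 4.56, 7.15 and 10.1 CPM in Venus-positive and 7.91, 1.83 and 2.98 CPM in Venus-negative cells, and in the jejunum 0.383, 9.93 and 4.30 against 1.52, 3.28 and 0.605 CPM. These groups overlapped, and neither the colonic (0.82, adjusted p = 0.42, 95% interval -0.43 to 2.07) nor the jejunal difference (1.44, adjusted p = 0.066, 95% interval 0.14 to 2.74) passed the test. The jejunal one passed without Venus-positive replicate 1 (1.99, adjusted p = 0.00465) or Venus-negative replicate 2 (2.23, adjusted p = 0.018). With all libraries it passed with RLE factors (1.55, adjusted p = 0.049), on library size alone (1.75, adjusted p = 0.020) and with no filter (1.54, adjusted p = 1.56e-04). In the duodenum the levels were 2.05, 1.81 and 2.81 CPM against 1.05, 0.195 and 1.08 CPM (1.51, adjusted p = 0.16). The duodenal groups did not overlap. Their difference passed on library size alone (1.93, adjusted p = 0.0485) and with no filter (1.59, adjusted p = 0.00326).

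Between regions *Fabp6* exceeded its level in the colon 179-fold, in the jejunum 265-fold and in the duodenum 588-fold in Venus-positive cells of the ileum (log2 fold changes 7.48, 8.05 and 9.20, largest adjusted p = 1.32e-08). In Venus-negative cells the same differences were 5.21, 6.40 and 7.62. Thus *Slc10a2* and *Fabp6* parted in the colon. The ratio of *Fabp6* to *Slc10a2* per kilobase had a median of 15.5 in Venus-positive cells of the ileum and 0.456 in those of the colon, and the ranges of 12.65 to 27.3 and 0.336 to 0.955 did not overlap. In Venus-positive cells *Fabp6* missed the threshold between jejunum and colon (-0.57 for jejunum minus colon, adjusted p = 0.49) and between colon and duodenum (1.72, adjusted p = 0.081). In Venus-negative cells it was higher in colon than in duodenum (2.41, adjusted p = 0.024), but not without the second duodenal library (1.93, adjusted p = 0.14) or the first colonic one (1.62, adjusted p = 0.24). The duodenal counts, 20, 22 and 25 in Venus-positive cells, were 0.098% to 0.116% of those in the ileal library that shared the i7 index.

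**Figure D1:**
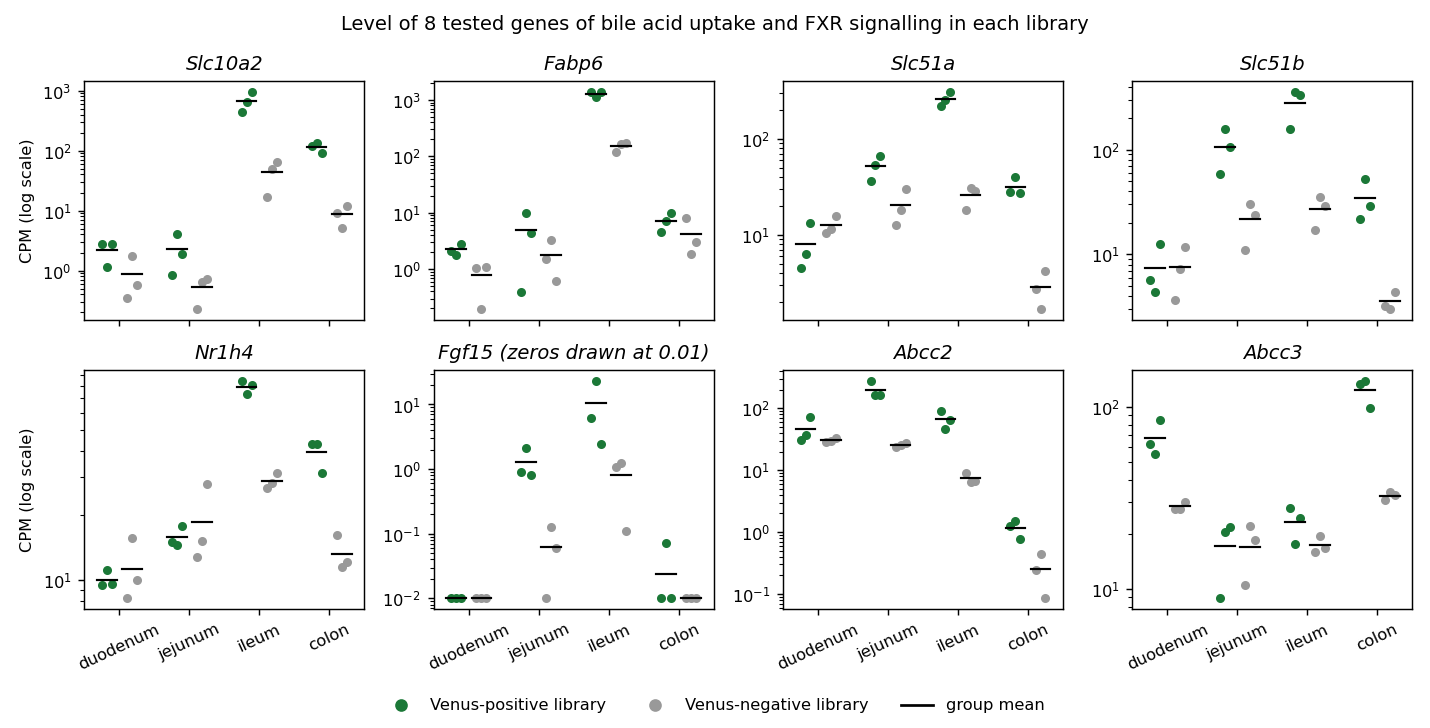
Level in CPM, on a log scale, of the 8 tested genes in each of the 24 libraries by region; green points are Venus-positive and grey points Venus-negative libraries, and black lines are means of 3. In the ileum *Slc10a2*, *Fabp6*, *Slc51a* and *Slc51b* sit highest, *Abcc2* peaks at 274.5 CPM in the jejunum and *Abcc3* at 139 CPM in the colon.

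*Slc51a* (chr16:32474504-32487879) and *Slc51b* (chr9:65412714-65422955) encode OSTα and OSTβ, the 2 subunits of the basolateral exporter that releases bile acids towards the blood. Both were highest in Venus-positive cells of the ileum. *Slc51a* had 220, 252 and 306 CPM there against 18.1, 30.7 and 28.7 CPM in Venus-negative cells, a 10.0-fold difference (log2 fold change 3.33, SE 0.38, adjusted p = 1.34e-07). *Slc51b* had 156, 356 and 331 CPM against 17.0, 35.1 and 28.7 CPM, a 10.4-fold difference (3.38, SE 0.48, adjusted p = 2.50e-06). For neither subunit did the ileal groups overlap. In the colon *Slc51a* had 28.0, 39.6 and 27.4 against 2.76, 1.68 and 4.17 CPM, and *Slc51b* 21.9, 53.0 and 29.1 against 3.24, 3.00 and 4.42 CPM. The colonic differences of 3.47 (adjusted p = 2.59e-06) and 3.28 (adjusted p = 4.20e-05) were close to those of the ileum, with ileum minus colon at -0.14 (95% interval -1.18 to 0.90) and 0.10 (95% interval -1.25 to 1.45).

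In the jejunum the exporter genes had intermediate levels. *Slc51a* had 36.6, 53.5 and 65.4 CPM in Venus-positive and 12.7, 18.3 and 30.1 CPM in Venus-negative cells, and it rose by 1.35 (SE 0.36, adjusted p = 0.00303). *Slc51b* had 58.4, 156 and 105 against 11.1, 30.6 and 23.7 CPM, and it rose by 2.29 (SE 0.46, adjusted p = 1.72e-04). In the duodenum neither subunit passed the test, with 4.51, 6.32 and 13.4 CPM of *Slc51a* in Venus-positive and 10.5, 11.5 and 15.6 CPM in Venus-negative cells. *Slc51b* had 5.63, 4.35 and 12.5 against 3.65, 7.26 and 11.8 CPM. Both pairs of groups overlapped, and the differences of -0.64 (adjusted p = 0.24) and -0.02 (adjusted p = 0.99, 95% interval -0.97 to 0.93) missed the threshold, and that of *Slc51b* turned to 0.43 on library size alone. Leaving out Venus-positive replicate 3, *Slc51a* passed it, at -1.21 (adjusted p = 0.038).

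Along the gut, Venus-positive cells of the ileum exceeded those of the jejunum 5.01-fold for *Slc51a* (log2 fold change 2.32, adjusted p = 7.30e-05), while *Slc51b* missed the threshold at 2.64-fold (1.40, adjusted p = 0.063). Against the duodenum the differences were 5.01 and 5.24, and against the colon 3.03 and 3.02, all past the threshold. In Venus-negative cells no difference between ileum and jejunum was called for *Slc51a* (0.34, adjusted p = 0.84) or *Slc51b* (0.30, adjusted p = 0.90), and both regions exceeded the colon. *Slc51a* was lower in colon than in duodenum there (-2.13, adjusted p = 2.80e-04). *Slc51b* was higher in ileum than in duodenum there (1.83, adjusted p = 0.015), a call lost without the first or second duodenal or the second ileal library (1.51 to 1.81). The subunits moved together over the 24 libraries, which span both sorts and all regions, with Pearson's r of 0.96 and Spearman's rho of 0.97. Per kilobase the *Slc51a* to *Slc51b* ratio stayed under 1 in every library, between 0.0762 and 0.635. *Slc51a* overlaps *Pcyt1a* by 567 bases and *Slc51b* overlaps *Rasl12* by 2140 bases, in both cases on the opposite strand. The strand setting of the counting is not given in the sources used here, so reads of the overlaps may be shared. *Rasl12* had at most 42 counts in any library and *Pcyt1a* at most 3788.

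*Nr1h4* (chr10:89454234-89533585) encodes FXR, the bile acid receptor. It rose in Venus-positive cells of ileum and colon, and no difference was called in jejunum or duodenum. In the ileum it had 84.1, 72.9 and 80.4 CPM in Venus-positive and 26.8, 28.3 and 31.4 CPM in Venus-negative cells. In the colon it had 42.9, 43.1 and 31.6 against 16.2, 11.4 and 12.2 CPM. Neither pair of groups overlapped, and the gene rose 2.75-fold in ileal cells (log2 fold change 1.46, SE 0.28, adjusted p = 1.27e-04) and 2.96-fold in colonic cells (1.57, SE 0.29, adjusted p = 3.45e-04). In the jejunum it had 15.02, 14.6 and 17.8 against 12.7, 15.2 and 27.8 CPM, and in the duodenum 9.42, 11.1 and 9.57 against 8.21, 15.6 and 10.0 CPM. These groups overlapped, with differences of -0.24 (adjusted p = 0.51, 95% interval -0.81 to 0.33) and -0.17 (adjusted p = 0.73, 95% interval -0.75 to 0.41), which turned to 0.013 and 0.31 on library size alone.

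In Venus-positive cells *Nr1h4* rose from jejunum to ileum by 2.33 (adjusted p = 1.71e-06) and was 2.02-fold higher in ileum than in colon (1.01, adjusted p = 0.00844), a call lost without the third colonic library (0.88, adjusted p = 0.063). The colon exceeded the jejunum 2.48-fold and the duodenum by 1.96 on the log2 scale (adjusted p = 5.40e-04 and 9.65e-06). Jejunum against duodenum missed the threshold (0.65, adjusted p = 0.078). In Venus-negative cells the receptor was higher in ileum than in duodenum (1.35, adjusted p = 0.00267) and than in colon (1.12, adjusted p = 0.013), the latter not without replicate 2 or 3 of the colon (0.91 and 1.08), while ileum against jejunum missed the threshold (0.63, adjusted p = 0.38). Among the members, its level tracked that of *Slc10a2* most closely over the 24 libraries, with r of 0.88.

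*Fgf15* (chr7:144896531-144900953) encodes the hormone that FXR induces in ileal enterocytes and that lowers bile acid synthesis in the liver. It was detected above the floor only in jejunum and ileum among these libraries. Venus-positive cells of the ileum had 113, 382 and 33 counts, or 6.08, 23.0 and 2.43 CPM. Venus-negative cells of the ileum had 26, 35 and 2 counts, or 1.07, 1.23 and 0.111 CPM, so the groups did not overlap in CPM although the Venus-positive libraries spread over 9.46-fold. The gene rose in Venus-positive cells (log2 fold change 3.67, SE 0.95, adjusted p = 0.00351), but not without their second library (2.37, adjusted p = 0.14). In the jejunum it had 14, 38 and 11 counts in Venus-positive cells and 0, 2 and 1 in Venus-negative cells. Against the floor of 3 counts per library this was at least 6.34-fold higher. Without the second Venus-positive library of the jejunum, an alternative added after the data were seen, the bound was 4.23-fold. The edgeR test against no difference gave an adjusted p of 0.00554. Venus-positive cells of the ileum were at least 35.3-fold above those of the duodenum, where no library held a count, and at least 49.3-fold above those of the colon, where 1 library held 1 count. Without the second ileal library, an alternative added after the data were seen, these bounds were 14.3-fold and 20.02-fold. Ileum against jejunum missed the threshold in Venus-positive cells (3.03, adjusted p = 0.057). The gene overlaps the antisense genes *Gm26793* and *Gm39119*, which had at most 9 and 8 counts in a library.

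*Nr0b2* (chr4:133553376-133556536) encodes SHP, a repressor that FXR induces in liver and gut. It was at or near the floor outside the duodenum, with at most 2 counts in any library of jejunum, ileum or colon. The duodenum had 0, 18 and 3 counts in Venus-positive cells and 3, 6 and 8 counts in the Venus-negative ones, so the sorted populations overlapped. Their means were 0.605 and 0.392 CPM. Of the 21 counts in duodenal Venus-positive cells, 18 came from a single library. *Gpbar1* (chr1:74278550-74279624) encodes TGR5, the bile acid receptor of the cell surface. No Venus-positive library held a count of it. Venus-negative cells of the ileum held 1, 3 and 2 counts, those of the colon 4, 2 and 5, and a single jejunal library held 1. In the colon the mean of the Venus-negative cells was 1.65-fold above the floor of the Venus-positive cells. Without single Venus-negative libraries, an alternative added after the data were seen, it was 1.34-fold to 2.13-fold. These Venus-negative counts were themselves near the floor, and neither *Nr0b2* nor *Gpbar1* was tested.

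*Abcc2* (chr19:43782192-43840740) encodes MRP2, an apical pump for conjugated organic anions. In Venus-positive cells its highest level was in the jejunum, and in Venus-negative cells its highest mean was in the duodenum. Venus-positive cells of the jejunum had 274.5, 162 and 166 CPM and Venus-negative cells 23.7, 25.7 and 27.6 CPM. Those of the ileum had 91.1, 46.9 and 64.9 against 9.12, 6.52 and 6.71 CPM. In both regions all Venus-positive libraries lay above all Venus-negative ones, with differences of 7.81-fold (log2 fold change 2.96, SE 0.34, adjusted p = 1.26e-07) and 9.07-fold (3.18, SE 0.34, adjusted p = 5.87e-08). In the duodenum the groups overlapped, at 30.8, 36.5 and 72.3 against 28.8, 30.0 and 33.5 CPM (0.60, adjusted p = 0.20, 95% interval -0.052 to 1.24). On library size alone this duodenal difference passed, at 1.06 (adjusted p = 0.046). The colon held 16, 21 and 12 counts in Venus-positive cells and 2, 6 and 1 in the Venus-negative ones. This colonic difference of 2.10 passed the threshold (adjusted p = 0.00891), but not without the second Venus-positive or the third Venus-negative library (1.84 and 1.68, adjusted p = 0.060 and 0.066) or in a fit of the colonic libraries alone (2.02, adjusted p = 0.21). The colonic counts were 0.414% to 0.705% of those in the jejunal library with the same i7 index in Venus-positive cells and 0.250% to 1.92% in Venus-negative cells.

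In Venus-positive cells *Abcc2* was 2.96-fold lower in ileum than in jejunum (-1.57, adjusted p = 0.00187) and 57.9-fold higher in ileum than in colon (5.86, adjusted p = 8.54e-12). The jejunum exceeded the duodenum 4.31-fold (2.11, adjusted p = 1.13e-05), and ileum against duodenum missed the threshold (0.54, adjusted p = 0.21). In Venus-negative cells, in contrast, the ileum was 4.13-fold below the duodenum (-2.04, adjusted p = 1.09e-04) and 3.44-fold below the jejunum (-1.78, adjusted p = 0.00113), the latter lost on library size alone (-1.14, adjusted p = 0.069). Jejunum against duodenum missed the threshold there (-0.26, adjusted p = 1), although every duodenal library lay above every jejunal one.

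*Abcc3* (chr11:94343295-94392997) encodes MRP3, a basolateral pump of the same family. It was high at both ends of the gut. Venus-positive cells of the colon had 134, 139 and 99.0 CPM and those of the duodenum 62.8, 54.9 and 84.5 CPM, against 30.8, 34.3 and 32.9 and 27.6, 27.6 and 30.1 CPM in Venus-negative cells. These groups did not overlap, and the gene rose 3.79-fold in the colon (log2 fold change 1.92, SE 0.31, adjusted p = 7.49e-05) and 2.37-fold in the duodenum (1.25, SE 0.30, adjusted p = 0.00484). In the jejunum it had 8.88, 20.7 and 22.0 against 10.5, 22.1 and 18.7 CPM, and in the ileum 28.0, 17.6 and 24.6 against 16.0, 19.5 and 16.9 CPM. Both pairs overlapped, with differences of 0.01 (adjusted p = 0.99, 95% interval -0.61 to 0.62) and 0.42 (adjusted p = 0.27, 95% interval -0.19 to 1.03). It was the sole tested member that did not rise in Venus-positive cells of the ileum.

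In Venus-positive cells *Abcc3* was 5.29-fold lower in ileum than in colon (-2.40, adjusted p = 9.44e-07) and 2.88-fold lower than in duodenum (-1.52, adjusted p = 4.22e-04). Ileum against jejunum missed the threshold (0.45, adjusted p = 0.50). Colon against duodenum lay at the threshold (0.88, adjusted p = 0.050), and the call was lost without the first or second library of either group (0.76 to 0.84), on library size alone (0.47, adjusted p = 0.40) or with no filter (0.91, adjusted p = 0.067). In Venus-negative cells the jejunum was below the colon (-0.93, adjusted p = 0.044), a call lost without replicate 1 or 3 of either group (-0.996 to -0.835). The ratio of *Abcc2* to *Abcc3* per kilobase in Venus-positive cells had medians of 0.444, 5.22, 1.78 and 0.00618 from duodenum to colon. The ranges of these 4 groups did not overlap, from 0.328 to 0.571 in the duodenum, 5.02 to 20.6 in the jejunum, 1.76 to 2.17 in the ileum and 0.00523 to 0.00714 in the colon.

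**Figure D2:**
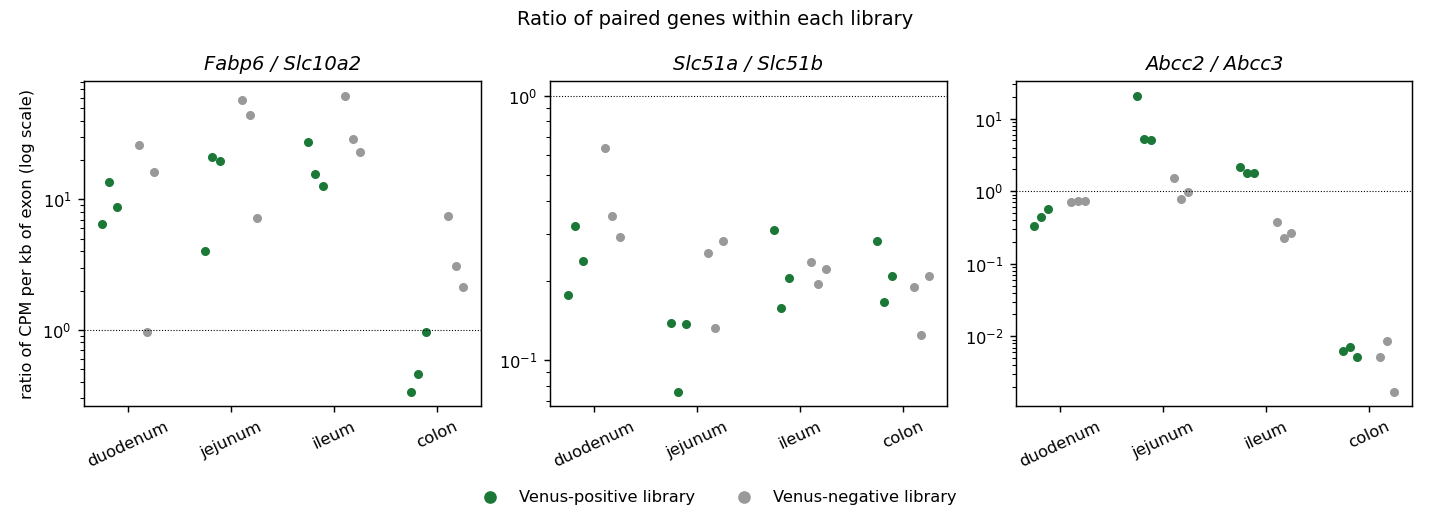
Ratio of CPM per kilobase of exon, on a log scale, for 3 pairs of genes in each library by region; green points are Venus-positive and grey points Venus-negative libraries, and the dotted line marks a ratio of 1. *Fabp6* to *Slc10a2* has a median of 0.456 in Venus-positive cells of the colon and 15.5 in those of the ileum, and *Slc51a* to *Slc51b* stays under 1.

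Between the sorted populations, members rose in Venus-positive cells and none fell in the 4 regions. In the ileum 7 of the 8 tested members rose, where 17.9% of all genes tested rose and 20.6% fell. The median log2 fold change was 3.26 over these 8 members and -0.27 over all genes. In the colon 6 rose (background 9.31% up and 3.80% down), namely *Slc10a2*, *Slc51a*, *Slc51b*, *Nr1h4*, *Abcc2* and *Abcc3*. In the jejunum 5 rose (18.3% up and 25.6% down), namely *Slc10a2*, *Slc51a*, *Slc51b*, *Fgf15* and *Abcc2*. In the duodenum *Abcc3* alone rose (8.88% up and 8.08% down). There *Slc10a2* and *Fabp6* also passed on library size alone or with no filter, and *Abcc2* on library size alone. In the colon all 4 colonocyte markers rose as well, with a median log2 fold change of 3.04, and summed to 1461 to 1648 CPM in Venus-positive against 101 to 258 CPM in Venus-negative libraries. Of the 14 enterocyte markers, 14 rose in the ileum and in the jejunum, 7 in the colon and 2 in the duodenum. The part of these cell types in the counts was not tested. A member could pass the filter on low counts through the group where it was high, so these shares describe the tested members.

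**Figure D3:**
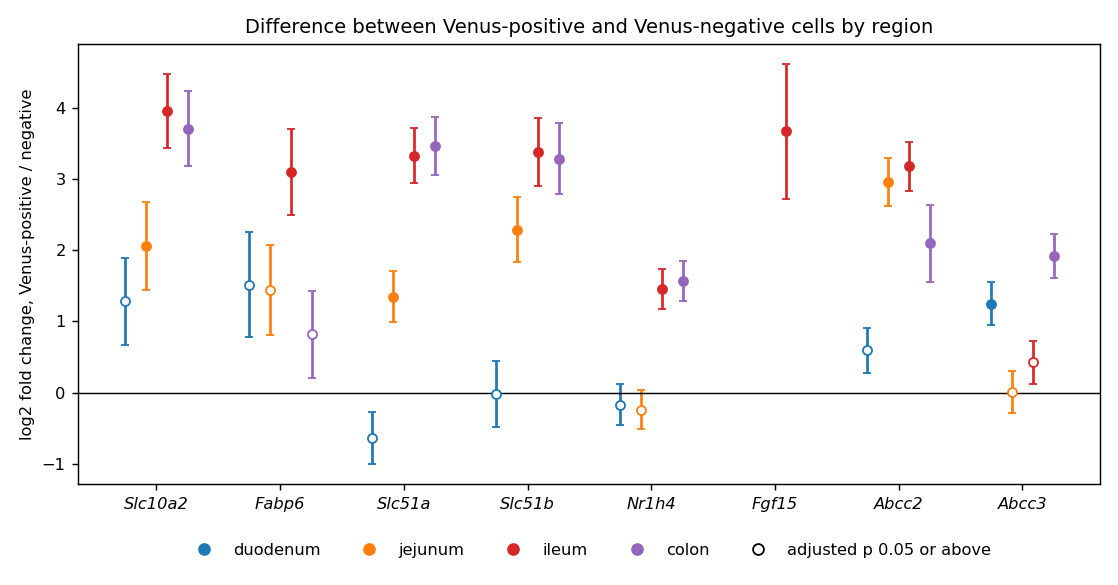
Log2 fold change of Venus-positive over Venus-negative cells with its standard error, for the tested members in each region by colour; filled points passed an adjusted p of 0.05, and *Fgf15* is drawn only in the ileum, where both groups had a library above 3 counts. The duodenal points of *Slc51a*, *Slc51b* and *Nr1h4* lie at -0.64, -0.02 and -0.17, with *Slc51b* and *Nr1h4* turning to 0.43 and 0.31 on library size alone, and their ileal points at 3.33, 3.38 and 1.46.

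The difference between the sorted populations was itself compared between regions by interaction contrasts. Against the duodenum it was larger in the ileum for 5 members, where 10.5% of all genes differed in either direction. These were *Slc51a* (3.97, SE 0.52, adjusted p = 1.32e-05), *Slc51b* (3.41, SE 0.65, adjusted p = 8.69e-04), *Slc10a2* (2.67, SE 0.78, adjusted p = 0.024), *Abcc2* (2.59, SE 0.45, adjusted p = 3.73e-04) and *Nr1h4* (1.63, SE 0.40, adjusted p = 0.00713). That of *Nr1h4* was lost on library size alone (1.13, adjusted p = 0.13). That of *Slc10a2* was lost without the second library of either duodenal group, the third Venus-positive or the first Venus-negative ileal library (1.72 to 2.34). Against the jejunum, edgeR called none of the 8 members, where 0.266% of genes differed, but 3 had an unadjusted p under 0.05 and DESeq2 called 2. These 2 were *Nr1h4*, at 1.70 (edgeR adjusted p = 0.054), and *Slc51a*, at 1.98 (edgeR adjusted p = 0.086). *Slc51a* passed in edgeR without replicate 3 of the jejunal Venus-positive libraries (2.18, adjusted p = 0.028). *Nr1h4* passed without replicate 3 of the jejunal Venus-positive libraries (1.79, adjusted p = 0.026) or replicate 1 of the jejunal Venus-negative ones (1.87, adjusted p = 0.047). Against the colon, where 2.79% of genes differed, *Abcc3* had a smaller difference in the ileum (-1.50, SE 0.42, adjusted p = 0.049). Leaving out any of the 12 libraries other than ileal Venus-positive replicate 1 ended that call, with values of -1.66 to -1.33 over all 12. *Fabp6* had a larger difference in ileum than in colon by 2.28, which missed the threshold (adjusted p = 0.14, 95% interval 0.56 to 3.99) but passed it with no filter (2.35) or with the compared libraries alone (2.40).

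Between regions, the members differed as follows. In Venus-positive cells of the ileum, 4 were higher and 1 lower than in the jejunum, where 5.15% of all genes differed. Those 4 were *Fabp6*, *Slc10a2*, *Slc51a* and *Nr1h4*, and *Abcc2* was lower. Against the duodenum 6 were higher and 1 lower (25.5% of genes), and against the colon 7 were higher and 1 lower (21.7%). The lower one was *Abcc3* both times, and *Abcc2* was higher against the colon alone. In Venus-negative cells, *Fabp6* and *Slc10a2* were higher and *Abcc2* lower in the ileum than in the jejunum, where 2.11% of genes differed. Against the duodenum *Fabp6*, *Slc10a2*, *Fgf15*, *Nr1h4* and *Slc51b* were higher and *Abcc2* lower (4.40%). Against the colon 7 were higher (5.24%), that is, all tested members but *Abcc3*. *Abcc3* was at -0.90 (adjusted p = 0.080), with every ileal library below every colonic one, and was called lower by DESeq2, with RLE factors, with protein-coding genes alone and with at least 10 counts in every library. These comparisons share the ileal libraries. Between jejunum and duodenum in Venus-positive cells, *Abcc2*, *Fgf15*, *Slc51a* and *Slc51b* were higher in the jejunum and *Abcc3* lower (33.2%). *Abcc3*, *Slc10a2*, *Slc51a*, *Nr1h4* and *Slc51b* were higher in colon than in duodenum there and *Abcc2* lower (12.4%). *Abcc2*, *Fgf15* and *Slc51b* were higher in jejunum than in colon and *Abcc3*, *Slc10a2* and *Nr1h4* lower (33.9%). That of *Slc51b* was lost without jejunal Venus-positive replicate 2 (1.24, adjusted p = 0.053). In Venus-negative cells *Fabp6* and *Slc10a2* were higher in colon than in duodenum and *Abcc2* and *Slc51a* lower (11.2%). There *Abcc2*, *Slc51a* and *Slc51b* were higher in jejunum than in colon and *Abcc3* and *Slc10a2* lower (10.5%). For jejunum against duodenum edgeR called none in Venus-negative cells (0.725%), with 3 at an unadjusted p under 0.05 and 0 called by DESeq2.

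Other genes of bile acid biology were counted in lists, first the regulators. Of 16 nuclear receptors and regulators 15 were tested, and in the ileum 7 rose and 1 fell in Venus-positive cells, with a median of 0.79. *Nr1i2*, the xenobiotic receptor PXR, rose by 1.57 (adjusted p = 1.21e-04). *Rxra*, the partner of FXR on DNA, rose by 1.55 (adjusted p = 6.67e-04), from a mean of 22.6 to 66.2 CPM. *Hnf4a*, a regulator of enterocyte genes, rose by 1.42 (adjusted p = 2.43e-04). *Nr5a2*, the receptor LRH-1, fell by 1.05 in log2 terms (adjusted p = 0.00598). *Gata4*, known for holding *Slc10a2* low in the proximal gut, had 43.8 CPM in Venus-positive cells of the jejunum and 2.42 CPM in those of the ileum. It was lower in the ileum in both sorted populations, by -4.17 (adjusted p = 3.56e-09) and -4.82 (adjusted p = 1.01e-09). *Nr1i3*, the receptor CAR, was also lower in the ileum in both, by -3.95 (adjusted p = 4.51e-05) and -3.61 (adjusted p = 2.77e-04). Between the sorts, *Gata4* rose at low levels in Venus-positive cells of the ileum and of the colon, where *Slc10a2* rose as well. It was not called between the sorts in duodenum or jejunum.

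Of 11 other carriers 6 were tested, and in the ileum 2 rose and 3 fell. The apical pumps *Abcg2* (2.87, adjusted p = 1.52e-06) and *Abcb1a* (2.77, adjusted p = 6.45e-07) rose, and *Abcc1* (-3.22, adjusted p = 9.01e-06), *Slco2b1* (-2.30, adjusted p = 0.026) and *Abcc4* (-2.10, adjusted p = 0.031) fell. The hepatocyte uptake carrier *Slc10a1* had no count in jejunum or ileum. Of 16 genes of bile acid synthesis and conjugation 8 were tested, and 4 rose and 1 fell in the ileum. *Baat*, which conjugates bile acids to amino acids, rose by 3.05 (adjusted p = 0.020), the peroxisomal oxidase *Acox2* by 2.87 (adjusted p = 0.00168) and *Scp2* by 2.02 (adjusted p = 1.74e-06), while *Cyp39a1* fell by 4.53 in log2 terms (adjusted p = 2.99e-05). *Cyp7a1* and *Cyp8b1*, the hepatic enzymes that start and shape synthesis, had no count in jejunum or ileum.

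Of 3 receptor genes, *Fgfr4*, the receptor of FGF15, fell by 2.98 in log2 terms (adjusted p = 0.015) and *S1pr2* by 2.87 (adjusted p = 0.040) in the ileum, and *Klb* did not pass the test. Of 4 other genes reported as intestinal FXR targets, *Nos2* (3.61, adjusted p = 2.24e-04), *Il18* (2.43, adjusted p = 5.98e-06) and *Ang* (1.63, adjusted p = 5.51e-04) rose in the ileum. *Fabp1* and *Fabp2*, paralogs of *Fabp6* that bind fatty acids, both rose in the ileum, by 1.13 (adjusted p = 0.030) and 3.81 (adjusted p = 6.68e-07). *Fabp1*, unlike *Fabp6*, was lower in the ileum than in the jejunum, with 518 CPM in Venus-positive cells of the jejunum and 2.93 CPM in those of the ileum (-7.45, adjusted p = 6.42e-12), and so it was in Venus-negative cells (-5.76, adjusted p = 1.01e-09). Against the colon *Fabp1* was higher in Venus-positive cells of the ileum, at 2.93 against 1.04 CPM (adjusted p = 0.013). Beside these list counts in the ileum stand the 17.9% of all tested genes that rose and the 20.6% that fell.

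**Figure D4:**
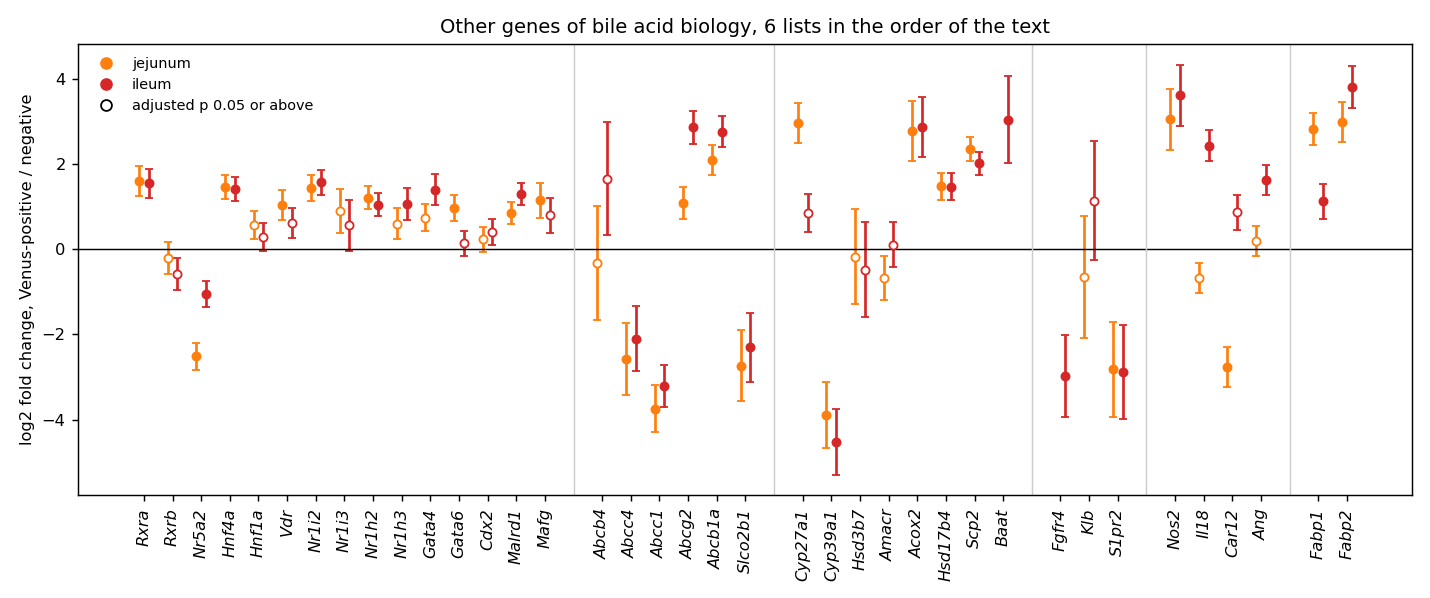
Log2 fold change of Venus-positive over Venus-negative cells with its standard error for the other genes of bile acid biology, in jejunum (orange) and ileum (red), with vertical lines between the 6 lists; filled points passed an adjusted p of 0.05, and points with a group at or under 3 counts in every library are left out. *Nos2* lies at 3.61 and *Cyp39a1* at -4.53 in the ileum.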

How the data were processed

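Bulk RNA-seq libraries of sorted Venus-positive and Venus-negative epithelial cells from 4 gut regions were analysed, with 8 groups of 3 libraries. The authors deposited raw counts per gene, and the submitters' processing notes name CASAVA and STAR version 2.5.1. Reads were aligned to GRCm38, and the gene annotation and strand setting of the counting are not given in the sources used here. Rows that name no gene, 39.4% to 75.8% of the reads of a library, were left out of library sizes and tests. Gene counts were 7458616 to 23063124 per library, which with 3 libraries a group sets the precision.

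Counts were tested with edgeR 4.0.16 (limma 3.58.1, R 4.3.3) by quasi-likelihood F-tests in a single model of all 8 groups with TMM factors. A gene needed a minimum count of 10 in enough libraries and a total of 15, which left 15044 genes, and the residual degrees of freedom of the design were 16. Adjustment after Benjamini and Hochberg ran across the 15044 genes, and an adjusted p under 0.05 counted as a call. A level at or under 3 counts was treated as a floor, intervals have a confidence level of 95% and log2 CPM for correlations used a prior count of 2. Such floors cover counting error only. The SE of a log2 fold change was its absolute value divided by the square root of the F statistic. Intervals were built from this SE. Levels of different genes were compared per kilobase of exon, with names, positions and lengths from a GRCm38 annotation. DESeq2 1.42.0, other scalings and filters, an index covariate and leaving out each library were run as alternatives.

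All 10 members are described, and those called are named for each comparison. Of each further list, up to 3 genes per direction in the ileal comparison of the sorts are named. Also named are those that differed between ileum and jejunum in both sorts. Per tested member, the 2 most correlated genes outside the 10 members are given. The members and lists were chosen with earlier results of these data known.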

Additional observations from a re-analysis of the deposited data

Results flagged for a closer look

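The difference between Venus-positive and Venus-negative cells was itself different between 2 regions for the following members, by an interaction contrast of edgeR's quasi-likelihood method, with p-values adjusted after Benjamini and Hochberg. Between ileum and duodenum it differed by 3.97 (SE 0.52) for *Slc51a*, 3.41 (SE 0.65) for *Slc51b*, 2.67 (SE 0.78) for *Slc10a2*, 2.59 (SE 0.45) for *Abcc2* and 1.63 (SE 0.40) for *Nr1h4*, on the log2 scale. On library size alone that of *Nr1h4* was 1.13 and missed the threshold (adjusted p = 0.13). Between ileum and colon it differed by -1.50 (SE 0.42) for *Abcc3*, with an adjusted p of 0.049. This call of *Abcc3* was lost without any of the 12 libraries compared other than ileal Venus-positive replicate 1 (-1.66 to -1.33 over all 12), and also with RLE factors, on library size alone, with no filter or with protein-coding genes alone (-1.43 to -1.38). That of *Slc10a2* was lost without any of 4 single libraries, at 1.72 to 2.34.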

How the results depend on the processing

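No paired analysis was possible because the labels do not name the mouse of a library, although the sorts of a region may share mice. Requiring at least 10 counts in every library left 4 members to test (*Slc51a*, *Slc51b*, *Nr1h4* and *Abcc3*), and lowered the members called to 2 for the sorts in the jejunum, 3 in the ileum, 4, 2 and 4 for Venus-positive ileum against duodenum, jejunum and colon, 2, 0 and 4 for Venus-negative, and 3 for the interaction of ileum and duodenum. In Venus-negative ileum against colon this filter added a call of *Abcc3*. It gave 1 for that of ileum and jejunum, where DESeq2 gave 2, no filter 1, protein-coding genes alone 1 and the i5 index as covariate 2, against 0. For the interaction of ileum and colon the count of 1 became 0 with RLE factors, library size alone or protein-coding genes, and 2 with the compared libraries alone. For the sorts in the duodenum the count of 1 became 4 on library size alone and 3 without a filter. The former added *Abcc2*, *Fabp6* and *Slc10a2* to *Abcc3*, and the latter *Fabp6* and *Slc10a2*.

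Leaving out each library gave 1 to 2 members for the sorts in the duodenum, 4 to 6 in the jejunum, 6 to 7 in the ileum and 5 to 6 in the colon, 0 to 1 for the interaction of ileum and colon and 0 to 2 for that of ileum and jejunum. Directions turned only for differences that were not called. *Slc51b* in the duodenum (-0.02) became 0.013 with DESeq2, 0.0094 with RLE factors, 0.43 on library size alone, 0.056 without a filter, 0.040 with protein-coding genes and 0.037 with the compared libraries alone. *Nr1h4* became 0.31 in the duodenum and 0.013 in the jejunum on library size alone, and *Abcc3* became -0.0972 in the jejunum with at least 10 counts in every library. Without single libraries the ranges were -0.61 to 0.44 for *Slc51b* and -0.36 to 0.13 for *Nr1h4* in the duodenum, and -0.39 to 0.17 for *Nr1h4* and -0.21 to 0.32 for *Abcc3* in the jejunum.

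Library size alone moved the median of all genes by over 0.1 in 15 of 19 comparisons (-0.49 to 0.62) and the share of higher calls by over 10 points in 13. In the duodenum that share of the sort calls went from 52.4% to 86.6%. RLE factors moved it in 4. On library size alone the calls of *Nr1h4* in the interaction of ileum and duodenum (1.13), *Abcc2* in Venus-negative ileum against jejunum (-1.14), *Abcc3* in Venus-positive colon against duodenum (0.47) and in Venus-negative jejunum against colon (-1.06) were lost. The latter was also lost with the compared libraries alone (-1.10), as were *Fabp6* in Venus-negative colon against duodenum (2.54) and *Nr1h4* in Venus-negative ileum against colon (0.996, and 1.04 with no filter). The causes were not tested. Counts of *Nr0b2*, *Gpbar1* and *Fgf15* limit what their levels show.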

Other observations

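Over the 24 libraries, which share region and sort, the non-member genes most like each tested member in log2 CPM were named by Pearson's r. For *Fabp6* they were *Slc25a48* (0.91) and *Baat* (0.88). For *Slc10a2* they were *Saa1* (0.93) and *Gcnt1* (0.90), for *Slc51a* *Cfl1* (0.93) and *Slc30a1* (0.92), and for *Slc51b* *Epb41l4b* and *Nos2* (both 0.95). *Slc51a* and *Slc51b* were closer still to each other (0.96). Outside the members, *Nr1h4* was nearest to *Tmigd1* and *Prss23* (both 0.87), and *Fgf15* to *Rnf152* (0.91) and *Plcb3* (0.88). The r of *Nr1h4* with the member *Slc10a2* was 0.88. *Abcc2* was nearest to the enterocyte lipid transfer gene *Mttp* (0.98) and the brush border trehalase *Treh* (0.97), and *Abcc3* to the glucose transporter *Slc2a1* (0.93) and *Slc50a1* (0.89). *Abcc2* and *Abcc3* had an r of -0.43 with each other.

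Uptake and export also had different proportions along the gut. The ratio of *Slc10a2* to *Slc51a* per kilobase in Venus-positive cells had a median of 1.94 in the ileum and 2.65 in the colon, with ranges of 1.53 to 2.40 and 2.57 to 3.23, and 0.0223 in the jejunum. Per kilobase *Slc51b* ranked 35, *Slc10a2* 80, *Slc51a* 144 and *Nr1h4* 392 of 21929 protein-coding genes in Venus-positive cells of the ileum.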
